A study of Mus musculus with 6 samples.

Results

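The genes described here encode the synaptic vesicle and membrane fusion machinery, chosen as a list of 37 gene symbols. They were matched by symbol to the array's probe annotation, and 36 of the 37 had a probe (59 probes in all). Unc13a had none and was not analysed here. Of 16593 genes with a named probe on the array, 8740 were bright enough to test, and 30 of the 36 were among them. RNA came from E14, a mouse embryonic stem cell line, and was hybridized to 6 Illumina bead arrays. The labels name 3 control samples, given the pSuper vector alone, and 3 knockdown samples, given an shRNA against REST, each treated for 72 h. REST is a repressor that keeps neuronal genes silent outside neurons, and the shRNA, a short hairpin, is designed to deplete its transcript. The labels give no further genotype, selection or clone, and nothing in them says that the 3 samples of a group were separate cultures. The p-values therefore rest on a spread between samples that may be purely technical.

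In a neuron, synaptic vesicles are filled with transmitter, docked at the active zone, and fused with the plasma membrane when calcium enters. Fusion is driven by SNARE proteins: a VAMP on the vesicle zips together with a syntaxin and a SNAP25-type protein on the target membrane. Synaptotagmins sense calcium, complexins hold and then assist the SNARE bundle, RIM and Munc13 proteins prime vesicles, and the ATPase NSF with its SNAP adaptors takes used bundles apart. Every cell uses SNAREs for traffic between its own compartments, so most of these families have paralogs with a largely neuronal expression and paralogs found in most tissues. Of the 37 genes, 21 were classed as neuronal and 16 as ubiquitous from general knowledge, with earlier results of these data already known. Syt7, Syt11 and Vamp2, placed in the neuronal class, are also expressed by many other cell types.

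REST binds a DNA element called RE1, whose core holds a left and a right block. Promoter windows from RefSeq (GRCm38.p6, 250 bases before to 50 after each annotated start) were searched on both strands for CAGCAC, then 3 bases of any kind, then GGACAG. A window for 30 of the 37 genes was in the table. Syn1 was the one gene among them whose window matched at least 11 of these 12 letters. Such a match was found for 0.511% of all 27025 genes in the table, and in 0.451% of all 32851 windows.

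The 250 bases before the start are given for 3 neuronal genes: Syn1 (chrX:20920919-20921168, minus strand), which rose and holds the best match, Syp (chrX:7638330-7638579, plus strand), which rose most, and Sv2a (chr3:96180977-96181226, plus strand), which fell. The match in Syn1, from 230 to 216 bases before the start, is in capitals. The best stretch in the windows of Syp and of Sv2a matched 8 of the 12 letters, which says only that these letters are not in these windows.

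Syn1: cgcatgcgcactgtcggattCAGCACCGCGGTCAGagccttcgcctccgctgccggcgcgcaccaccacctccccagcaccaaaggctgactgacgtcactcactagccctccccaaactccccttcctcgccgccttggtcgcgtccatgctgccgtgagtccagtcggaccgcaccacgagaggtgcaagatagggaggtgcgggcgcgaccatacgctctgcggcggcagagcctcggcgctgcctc
Syp: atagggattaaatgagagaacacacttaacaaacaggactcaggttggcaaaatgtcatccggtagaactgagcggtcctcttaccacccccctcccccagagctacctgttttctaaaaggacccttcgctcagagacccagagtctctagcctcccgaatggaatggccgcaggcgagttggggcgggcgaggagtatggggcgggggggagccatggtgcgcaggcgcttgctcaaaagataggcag
Sv2a: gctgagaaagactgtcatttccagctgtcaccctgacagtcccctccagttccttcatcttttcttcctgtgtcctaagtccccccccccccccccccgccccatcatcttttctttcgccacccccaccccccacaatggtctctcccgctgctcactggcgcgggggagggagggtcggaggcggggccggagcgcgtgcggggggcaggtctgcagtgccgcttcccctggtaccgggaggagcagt

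The arrays were alike in brightness, with a mean intensity of 442 to 473 and 46.4% to 49.0% of probes above background. Across tested probes, which are not independent replicates, the correlation was 0.992 to 0.994 between arrays within a group and 0.970 to 0.983 between the groups. The probe of Rest itself stayed at background on all 6 arrays (raw intensities from -0.60 to 0.60 in control and from -1.7 to 3.3 in knockdown cells), so the labels could not be checked against it. Part of the machinery was above background in control cells. All 16 ubiquitous genes and 13 of the 20 neuronal genes with a probe were so on at least 2 control arrays. Syt4 was above background on no control array. The 6 neuronal genes not tested, Snap25, Syt1, Syt2, Syt3, Syt7 and Cplx2, were above it on no array of either group.

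Among the 30 tested genes, 9 rose, 5 fell and 16 did not pass the test, which was an adjusted p under 0.05 in limma over all tested probes. Across all 8740 tested genes, 27.0% passed, 13.9% higher and 13.1% lower, and across all tested probes 25.9% did. The groups did not overlap for 20 of the 30, against 45.3% of all tested genes. The neuronal class had 6 higher, 3 lower and 5 not called of 14, with a median log2 change of 0.08 and a range from -1.19 to 3.26. The ubiquitous class had 3 higher, 2 lower and 11 not called of 16, with a median of -0.08 and a range from -0.85 to 0.76. The median over all tested genes was 0.00. The classes therefore lay close in their medians, and the neuronal class was spread widely in both directions. Without Syt7 (not tested), Syt11 and Vamp2, the neuronal median was 0.49, with 6 of 12 higher and 2 lower. Syt11 (-0.28) and Vamp2 (-0.47) had changes below 0, so leaving them out could only raise the median. Rises of at least 2-fold were found for 4 of 14 tested neuronal genes and for no ubiquitous gene, against 1.88% of all tested genes. One of the 4, Syt4, was above background on the knockdown arrays only and so had to differ to be tested. Another, Rims2, had a log2 change of 1.07, close to the 2-fold line. It fell short of 2-fold without background correction (0.87), with an offset of 50 (0.82) and without control replicate 2 (0.95). The genes and classes were chosen with earlier results of these data known, so these shares are not independent of those results. With a filter on all 6 arrays, 5 of 12 neuronal genes rose and 3 fell. The test of the difference between the classes was not made, since genes are not replicates.

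**Figure D1:**
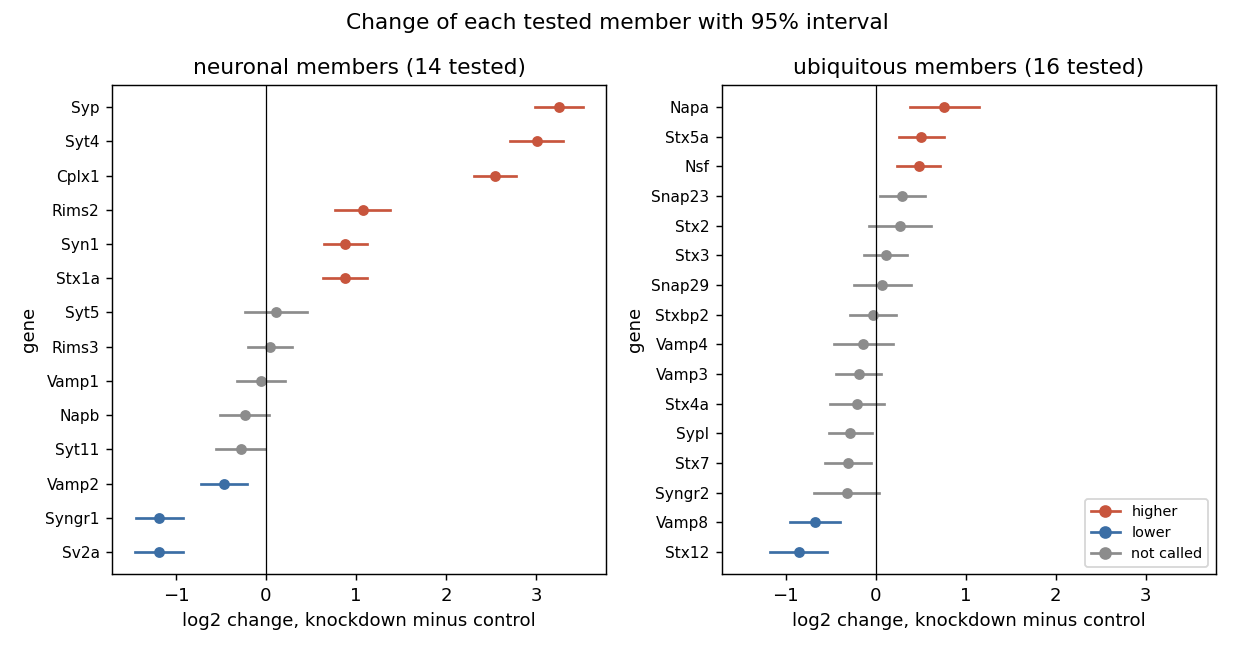
Log2 change (knockdown minus control, horizontal axis) of each tested gene, neuronal on the left and ubiquitous on the right, with the 95% interval of the limma fit as a line. Red genes rose, blue genes fell and grey genes did not pass the test. The neuronal genes run from -1.19 to 3.26 and the ubiquitous genes from -0.85 to 0.76.

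Proteins of the vesicle membrane included the largest rise and the largest fall of the list. Syp encodes synaptophysin, an abundant vesicle membrane protein. Its raw intensity was 132.9, 134.8 and 131.2 on the control arrays and 1504.8, 1507.6 and 1248.1 on the knockdown arrays, where 0 is the background. All knockdown arrays lay far above all control arrays, and after normalization Syp rose 9.57-fold, by 3.26 ± 0.12 on the log2 scale (SE, n = 3; limma adjusted p = 1.80e-06). Sypl, the widely expressed paralog of Syp, had normalized log2 levels of 11.46, 11.39 and 11.50 in control and 11.27, 11.09 and 11.15 in knockdown cells. These did not overlap, but the change of -0.28 ± 0.10 (SE, n = 3) did not pass the test (limma adjusted p = 0.0794). Its second, dimmer probe had -0.40 and did pass (limma adjusted p = 0.0330).

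Sv2a, a transporter-like vesicle glycoprotein that binds synaptotagmin, went the opposite way to Syp. Its raw intensity was 187.4, 163.8 and 152.2 on the control arrays and 78.2, 62.1 and 58.6 on the knockdown arrays. The groups did not overlap, and Sv2a fell 2.28-fold, with a log2 change of -1.19 ± 0.12 (SE, n = 3; limma adjusted p = 0.000408). The other probe had -0.93 (adjusted p = 0.00619). Syngr1 encodes synaptogyrin 1, a neuronal relative of synaptophysin. Its raw intensity was 999.0, 1005.4 and 865.8 in control and 467.0, 393.0 and 392.8 in knockdown cells. All knockdown values lay below all control values, and Syngr1 was lower by 2.28-fold, a log2 change of -1.19 ± 0.12 (SE, n = 3; limma adjusted p = 0.000362). The 2 other tested probes of Syngr1 had log2 changes of -0.97 (adjusted p = 0.00179) and -0.37 (adjusted p = 0.199), the last being above background on only 4 of the 6 arrays. Syngr2, the synaptogyrin of non-neuronal cells, had -0.32 ± 0.16 (SE, n = 3) with overlapping groups and did not pass (limma adjusted p = 0.172), and its other probes had -0.26 and -0.23.

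Syn1 encodes synapsin 1, which tethers vesicles to the cytoskeleton and to each other, and its promoter window held the RE1-like stretch shown above. The raw intensity of its brightest probe was 244.2, 214.5 and 217.5 in control and 490.8, 401.1 and 441.6 in knockdown cells. The groups were well apart, and Syn1 rose 1.84-fold, with a log2 change of 0.88 ± 0.11 (SE, n = 3; limma adjusted p = 0.00102). Its other probe gave a rise of 2.17-fold (log2 change 1.12, adjusted p = 0.00168).

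**Figure D2:**
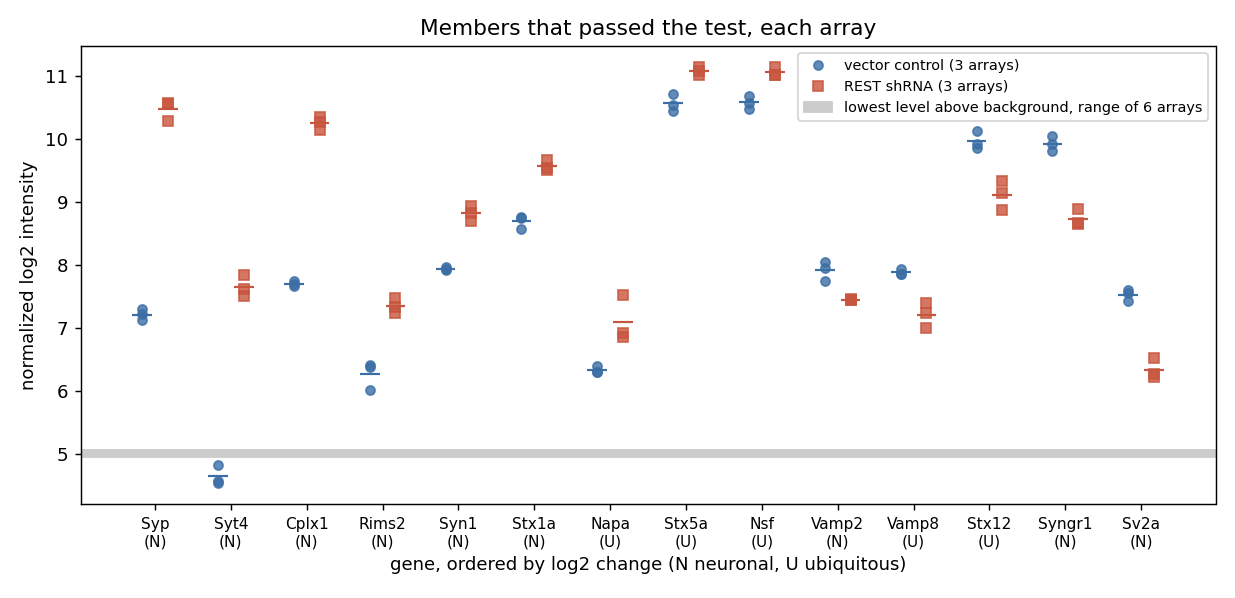
Normalized log2 intensity (vertical axis) on each of the 6 arrays for the 14 genes that passed the test, ordered by log2 change, with N for neuronal and U for ubiquitous. Circles are control arrays, squares are knockdown arrays and short lines are group means. The groups are separate for all 14, and the control values of Syt4 lie below the grey band, which spans the lowest level above background on each array.

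Of the complexins and synaptotagmins, Cplx1 and Syt4 rose, 2 tested synaptotagmins did not pass, and the others were below background in both groups. Cplx1 encodes complexin 1, which binds the assembled SNARE bundle. Its raw intensity was 201.7, 186.1 and 181.4 in control and 1298.5, 1202.8 and 1124.0 in knockdown cells. It rose 5.84-fold without overlap, by 2.55 ± 0.10 on the log2 scale (SE, n = 3; limma adjusted p = 3.08e-06). Its paralog Cplx2 was not above background on any array, with raw intensities from -1.8 to 6.4.

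Among the 7 synaptotagmins, 3 could be tested. Syt4, a family member that binds calcium weakly, had raw intensities of 10.9, 0.9 and 2.1 in control cells, none above background, and of 188.0, 166.8 and 216.2 in knockdown cells, all above it. Its rise was therefore at least 6.25-fold in the main processing, set against the mean of the lowest levels above background on the control arrays. The size depends on the processing: the log2 change from the control values as measured was 3.01 there, 2.30 without background correction and 1.996 with an offset of 50. Syt4 entered the test only through the knockdown arrays, where it is high, so its p-value is not given as support, and it was not tested under a filter on all 6 arrays. Syt5 was above background on all arrays and overlapped between the groups, with a log2 change of 0.11 ± 0.15 (SE, n = 3; limma adjusted p = 0.632). Syt11, a non-calcium-binding relative of Syt4, had -0.28 ± 0.12 (SE, n = 3) without overlap and did not pass (limma adjusted p = 0.121). The main calcium sensors of fast release, Syt1 and Syt2, stayed at background on all 6 arrays, as did Syt3 and the 3 probes of Syt7. The raw intensities of Syt1 ran from -3.6 to 4.9 in control and from -5.5 to 3.0 in knockdown cells, on both sides of the background.

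Of the target-membrane SNAREs, the neuronal syntaxin rose while the neuronal SNAP25 stayed below background. Stx1a encodes syntaxin 1A of the presynaptic membrane. Its raw intensity was 382.6, 398.3 and 405.8 in control and 804.6, 714.5 and 736.1 in knockdown cells. The groups did not overlap and Stx1a rose 1.84-fold, a log2 change of 0.88 ± 0.11 (SE, n = 3; limma adjusted p = 0.00113). Snap25, its partner at the synapse, had raw intensities from -9.5 to -3.3 in control and from -7.5 to -0.6 in knockdown cells and was not above background on any array. Its ubiquitous paralogs were measured and did not pass the test: Snap23 had a log2 change of 0.30 ± 0.11 and Snap29 of 0.07 ± 0.14 (SE, n = 3; limma adjusted p = 0.0794 and 0.732).

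The 6 ubiquitous syntaxins moved in both directions. Stx5a, which works between the endoplasmic reticulum and the Golgi, had log2 levels of 10.54, 10.45 and 10.72 in control and 11.08, 11.02 and 11.14 in knockdown cells and rose 1.42-fold (limma adjusted p = 0.0110, n = 3). A dimmer probe of Stx5a had a similar change of 0.48, with overlapping groups, and did not pass (adjusted p = 0.108). Stx12, an endosomal syntaxin, had log2 levels of 9.86, 9.93 and 10.14 in control and 9.34, 9.14 and 8.88 in knockdown cells. It fell by 0.85 ± 0.14 on the log2 scale without overlap (SE, n = 3; limma adjusted p = 0.00360). Stx7, also endosomal, had -0.31 and did not pass (adjusted p = 0.0730), although its groups were separate. Stx2, Stx3 and Stx4a, which serve fusion at the plasma membrane, had log2 changes of 0.27, 0.11 and -0.21 with overlapping groups, and none of these 3 passed. A dimmer probe of Stx3 had 0.20 with separate groups and did not pass either (limma adjusted p = 0.205).

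On the vesicle side, all 5 tested VAMP genes had log2 changes below 0 and 2 of them passed the test in limma, although the small changes of Vamp1 and Vamp4 were 0.009 each in the authors' ratios. Vamp2 is the main vesicle SNARE of brain synapses and is also expressed in many other tissues. Its log2 levels were 7.74, 8.05 and 7.96 in control and 7.47, 7.44 and 7.44 in knockdown cells, and it fell by 0.47 ± 0.11 on the log2 scale (SE, n = 3; limma adjusted p = 0.0169). This call was close to the threshold: it was lost without control replicate 2 (adjusted p = 0.0591), knockdown replicate 2 (0.0527) or knockdown replicate 3 (0.0504), and in the authors' ratios (0.0960). Vamp8, an endosomal and secretory SNARE of non-neuronal cells, had log2 levels of 7.86, 7.94 and 7.86 in control and 7.24, 7.40 and 7.005 in knockdown cells. It fell by 0.67 ± 0.12 (SE, n = 3; limma adjusted p = 0.00533), while its dim second probe had -0.30 (adjusted p = 0.312). Vamp1, the other synaptic VAMP, was near background and had -0.06, Vamp3 had -0.19 and Vamp4 -0.14, and these 3 did not pass.

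Among the active zone and priming genes, Rims2 passed the test. It encodes a RIM protein that organizes release sites and calcium channels. Its raw intensity was 74.8, 46.3 and 65.1 in control and 167.2, 145.7 and 132.9 in knockdown cells, and it rose 2.11-fold without overlap, a log2 change of 1.07 ± 0.14 (SE, n = 3; limma adjusted p = 0.00119). Rims3, a short RIM form, was bright in both groups, with log2 levels of 10.05 ± 0.04 and 10.10 ± 0.12 (SD, n = 3), and its change of 0.05 had a 95% interval from -0.19 to 0.29. Stxbp2, the Munc18 protein of epithelial and blood cells, had a change of -0.03 with a 95% interval from -0.28 to 0.22. Neither Rims3 nor Stxbp2 passed (adjusted p = 0.777 and 0.867).

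Of the disassembly genes in the main list, Nsf and Napa were higher in knockdown cells, while Napb, the brain form of the adaptor, was not. Nsf, the ATPase that separates used SNARE bundles in all cells, had log2 levels of 10.48, 10.58 and 10.68 in control and 11.15, 11.01 and 11.02 in knockdown cells and rose 1.39-fold (limma adjusted p = 0.0120, n = 3). Napa, which encodes the ubiquitous adaptor alpha-SNAP, had 6.31, 6.32 and 6.40 in control and 6.86, 6.93 and 7.52 in knockdown cells. It rose 1.70-fold, a log2 change of 0.76 ± 0.17 (SE, n = 3; limma adjusted p = 0.0120), with knockdown replicate 3 above the other 2. Its dimmer probe had 0.48 with overlapping groups and did not pass (adjusted p = 0.119). Napb, the brain-enriched beta-SNAP, had -0.24 ± 0.12 (SE, n = 3; limma adjusted p = 0.172). A further SNAP adaptor gene, Napg of the wider list below, named after its values were seen, had 0.29 and did not pass (limma adjusted p = 0.0832).

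Neuronal genes were then set against their ubiquitous paralogs within each array, for the 8 pairs of 10 in which both genes could be tested. The pairs with Snap25 dropped out because it was too dim. The exact two-sided permutation test over 6 arrays cannot give a p below 0.10 here, so no pair could pass, and the smallest value was reached by 7 of the 8 pairs (0.114 after adjustment over the pairs). Relative to its paralog, the neuronal gene was higher in knockdown cells for Syp against Sypl, by 3.54 ± 0.13 on the log2 scale (SE, n = 3). It was also higher for Stx1a against Stx4a (1.09 ± 0.16), Stx3 (0.77 ± 0.07) and Stx2 (0.61 ± 0.15), which share the values of Stx1a. It was lower for Napb against Napa (-1.0001 ± 0.21), Syngr1 against Syngr2 (-0.87 ± 0.16) and Vamp2 against Vamp3 (-0.28 ± 0.08). Vamp1 against Vamp3 differed by 0.13 ± 0.07 with overlapping groups (exact permutation p = 0.20, n = 3). The neuronal partner was thus higher in 4 of the 7 separated pairs, in 2 gene families, and lower in 3. The signs of all 8 differences were the same without background correction, with median scaling, with an offset of 50 and in the authors' ratios.

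**Figure D3:**
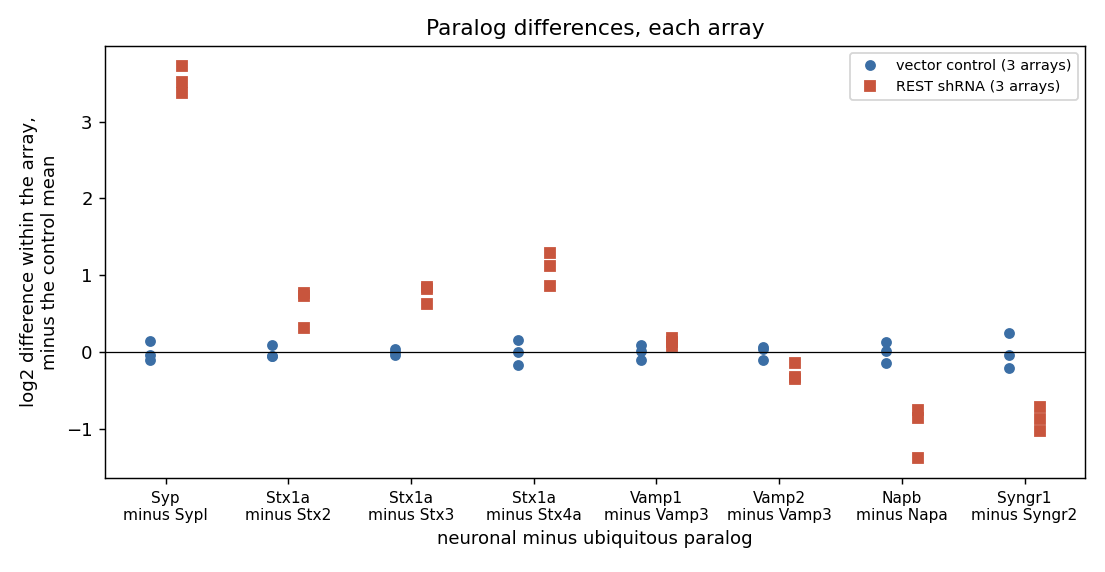
Log2 difference between a neuronal gene and its ubiquitous paralog on each array, minus the control mean of that difference (vertical axis), for 8 pairs. Circles are control arrays and squares knockdown arrays. The knockdown arrays lie above the control arrays for Syp and for the 3 pairs of Stx1a, below them for Vamp2, Napb and Syngr1, and overlap them for Vamp1.

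A wider list of 158 vesicle traffic genes, such as further SNAREs, exocyst and endocytosis genes, was examined beside the members. Of these, 135 had a probe and 80 could be tested, with 12 higher, 6 lower and 62 not called, and a median log2 change of 0.08. As shares of the tested genes these are 15.0% higher and 7.50% lower, against 13.9% and 13.1% of all tested genes. The number higher fell to 6 without control replicate 2, and to 7 without control replicate 1, knockdown replicate 2 or knockdown replicate 3, while the authors' ratios gave 19. Those lower numbered 10 without background correction, 12 with an offset of 50 and 14 with a trended and robust variance.

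The largest rises in the wider list were smaller than those of Syp, Syt4 and Cplx1. Ap3b2, the neuronal subunit of the AP-3 coat that buds vesicles from endosomes, rose 1.88-fold, a log2 change of 0.91 ± 0.15 (SE, n = 3; limma adjusted p = 0.00371). Pclo, the giant active zone scaffold Piccolo, had a log2 change of 0.78 and was above background on 2 control arrays and all knockdown arrays. The ubiquitous dynamin Dnm2 (0.75), the clathrin uncoating factor Dnajc6 (0.62) and the endophilin Sh3gl3 (0.57) rose, while the endophilins Sh3gl1 and Sh3gl2, named after their values were seen, had 0.14 and 0.10 and did not pass. The endoplasmic reticulum SNARE Stx18 (0.69), the Sec22 family gene Sec22a (0.67) and the synaptic scaffold Cask (0.60) were also higher.

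All 6 genes of the wider list that fell can be named. Rab3a, the GTPase of synaptic vesicles, fell by 1.12 ± 0.13 on the log2 scale and Rab3il1, an exchange factor that binds Rab3a, by 1.18 ± 0.18 (SE, n = 3; limma adjusted p = 0.000821 and 0.00237). Rab3il1 was above background on all control arrays but on only 2 knockdown arrays, so the size of its fall is limited by the background. Slc17a7, which loads glutamate into vesicles, fell by 1.06, and Syngr3, another synaptogyrin, by 0.76 (adjusted p = 0.00418). The scaffold Lin7b fell by 0.86 and the endoplasmic reticulum SNARE Bnip1 by 0.53. RE1-like stretches of at least 11 letters were found in the windows of 5 of the 122 wider-list genes in the table, against 0.511% of all 27025 genes in it. They were Rab3il1, which fell, Scamp5, which was tested and not called (-0.15, adjusted p = 0.324), and Rph3a, Slc17a6 and Sypl2, which were not tested, all named after their values were seen.

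**Figure D4:**
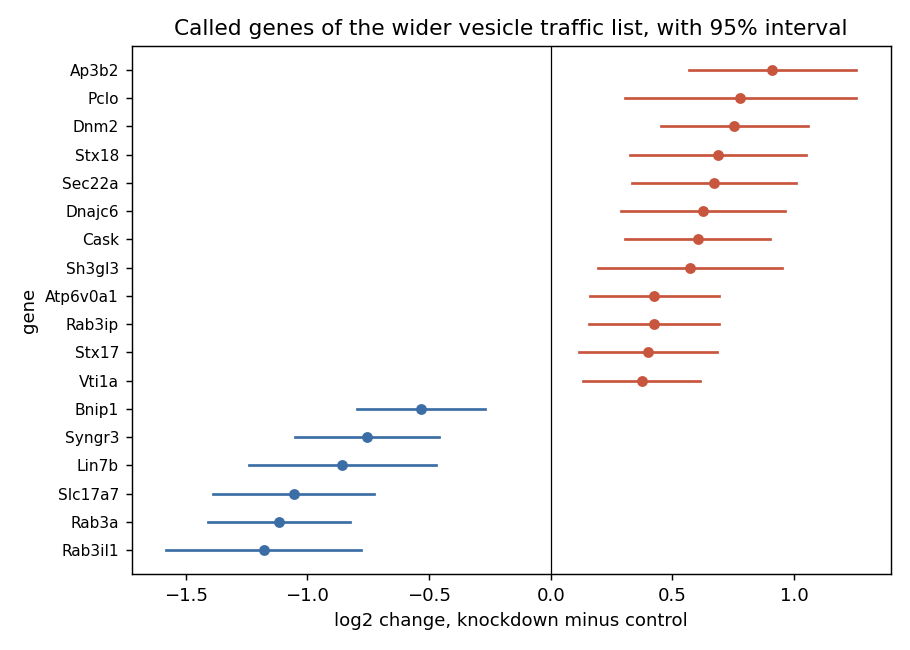
Log2 change (knockdown minus control, horizontal axis) with the 95% interval for the 18 genes of the wider vesicle traffic list that passed the test. The 12 red genes rose, by 0.37 to 0.91, and the 6 blue genes fell, by 0.53 to 1.18.

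Markers of other cell types were read beside these results. Of 12 neuronal cytoskeleton and RNA-binding markers that hold no vesicle gene, 6 were not above background on any array, 5 rose, by 1.46-fold to 3.90-fold, and 1 fell, with a median log2 change of 0.85. The gene that fell, named after its values were seen, was Stmn2 (-0.50), with a mean log2 level of 10.61 over the 6 arrays. The summed raw intensity of the probes of that list was 2105 to 2423 on control and 2223 to 2461 on knockdown arrays, so the ranges overlapped. Such a sum rests mostly on its brightest gene, Stmn2, since the 5 genes that rose had mean log2 levels of 6.53 to 8.06. Of 11 embryonic stem cell markers, all tested, 2 rose and 2 fell, with sums of 153154 to 162549 and 143088 to 149856. Of 13 fibroblast markers, 12 had a probe and 7 of these were not tested. Of the 5 tested fibroblast markers 3 fell, none rose, and the sums were 3049 to 3571 and 2025 to 2063. Beside these marker counts, 13.9% of all tested genes were higher and 13.1% lower. The part of any change in cell types in these results was not tested, and in bulk RNA fewer cells of a type and less RNA per cell cannot be told apart.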

How the data were processed

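The main deposited table gives, for each probe on each array, a linear intensity that the authors had not normalized across arrays, with 25.3% to 26.3% of values below 0. Its detection score, deposited as a fraction from 0 to 1, rose with intensity, so the detection p was taken as 1 minus it. The other deposited table gives a linear ratio for each probe, made by the authors against a reference that is not given in the sources used here, as are the software and its versions.

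Intensities were background corrected with the normexp model, offset 16, in limma 3.58.1 under R 4.3.3, quantile normalized and log2 transformed. A probe was tested if its detection p was under 0.05 on 3 or more of the 6 arrays, which held for 12406 of 25697 probes. The annotation gave 1 symbol to 23978 probes, several to 0 and none to 1719. A gene was represented by its brightest tested probe. Groups came from the sample titles. The groups were compared with lmFit and eBayes of limma, with group as the term, adjusted by Benjamini-Hochberg over all tested probes. A gene below background on a whole group has its fold as a lower bound. Signed changes are knockdown minus control. The number of arrays (3 per group) limits the precision.

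The genes, classes and lists were chosen with earlier results of these data known. Every tested gene of the main list may be named, and of the wider list the called genes with the 8 largest rises and the 8 largest falls. The fit was tested on simulated data. The alternatives were median scaling, no background correction, no filter, the authors' ratios, an offset of 50, a stricter filter (a detection p under 0.01 on every array), the replicate number as a block, a robust trended variance, the mean of a gene's probes, and each array left out. Promoter sequences are from RefSeq, GRCm38.p6, and the 7 genes with no window in that table are Syt4, Syt5, Syt7, Snap25, Rims2, Vamp2 and Vamp3. The sequence of 1 further stretch is not reported here.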

Additional observations from a re-analysis of the deposited data

How the results depend on the processing

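Of the 14 genes of the main list that passed the test, 13 kept direction and call under each alternative that could test them. The exception was Vamp2, which kept its direction and lost its call in the authors' ratios and without control replicate 2, knockdown replicate 2 or knockdown replicate 3. Syt4, among the 13, entered the test only through the knockdown arrays, so its kept call is not given as support. It was not tested under the stricter filter, and each fit with 1 array left out used the probes chosen on all 6 arrays. The genes that rose numbered 9 with any 1 array left out, and those that fell 4 to 6. In the neuronal class 6 rose and 2 to 3 fell, and in the ubiquitous class 3 rose and 2 to 3 fell. With a trended and robust variance 8 genes fell and with an offset of 50 it was 7, in each case with 4 ubiquitous genes among them. The neuronal median was 0.03 to 0.14 and the ubiquitous median -0.12 to -0.02 with 1 array left out. In the authors' ratios the neuronal median was 0.19 and the ubiquitous median 0.052, with a median of 0.09 over all tested probes, and the ubiquitous median changed sign there but not with median scaling (-0.12). Without Syt7, Syt11 and Vamp2 the neuronal median was 0.49, the tested genes left out having changes below 0. In the wider list 6 to 12 genes rose and 6 to 8 fell with 1 array left out, against 19 higher in the authors' ratios, and 10, 12 and 14 lower without background correction, with an offset of 50 and with a trended and robust variance. Over all probes, 1027 to 1355 were higher and 991 to 1368 lower with 1 array left out, lowest without control replicate 2, and 907 were lower in the authors' ratios. The cause of these shifts was not tested. With the replicate block, 9 genes of the main list rose and 5 fell, and 1418 probes were higher and 1463 lower. The deviations of same-numbered arrays had correlations of -0.06, 0.03 and 0.04, and the numbers were therefore not treated as pairing the samples. Genes near background, such as Stx2, Vamp1 and the control values of Syt4, are limited by their signal.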
